A study of Danio rerio with 40 samples.

Results

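The testes of 20 of the 40 zebrafish in the series were compared between a high and a low rearing density. These 20 fish are all the fish that the sample labels give as male. Of them, 10 carry the label for stress by high density and 10 the label for control. All were fish of the AB strain from 1 family, and their testes were taken at 90 days post fertilization (dpf). The control fish were kept at 9 fish/L throughout. The high density fish were crowded at 66 fish/L between 18 and 45 dpf and were kept at under 16 fish/L afterwards, so the testes were collected well after the crowding had ended. The comparison asks whether crowding during the period in which the sex of a zebrafish is settled leaves a mark on DNA methylation in the adult testis. DNA methylation was measured by bisulfite sequencing of 6 amplicons, a method in which unmethylated cytosines are converted and read as thymines while methylated cytosines are still read as cytosines. Whole testes were used, so a change of methylation within a cell type and a change in the share of that cell type cannot be told apart. Testes are named here by the number in the label (G3, G4 and so on), and a number that occurs at both densities (G10, G20, G21 and G24) names different fish.

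CpG methylation near the start of a gene is usually low where the gene is in use and high where it is silent. The 6 genes fall into 3 roles. The first is *dnmt1*, the methyltransferase that copies methylation onto the new DNA strand at each cell division. The second is *dmrt1*, a transcription factor of testis development. The others make or convert steroids: *cyp19a1a* is the gonadal aromatase that turns androgens into estrogens, *hsd17b1* encodes a 17β-hydroxysteroid dehydrogenase, *cyp11c1* encodes the 11β-hydroxylase needed for cortisol and for the fish androgen 11-ketotestosterone, and *hsd11b2* encodes the dehydrogenase that inactivates cortisol and also takes part in making 11-ketotestosterone. In gonads these steps link the stress axis with the balance of androgens and estrogens.

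The 6 regions are defined by their bisulfite primers, which are shown because they fix which cytosines could be read. Letters are in lower case, with the guanines of forward primers and the cytosines of reverse primers in capitals. None of the 6 forward primers holds a cytosine, 0 of the 12 primers hold the dinucleotide CG, none of the 6 reverse primers holds a guanine. The primers are 25 to 30 bases long.
dnmt1 forward: aaatttatGGGtaaatatGtatttttGaG
dnmt1 reverse: aaatCttaataaaCatttCaaattC
dmrt1 forward: aatattttttattGtGGtGtttGtt
dmrt1 reverse: CaaaataaCCtCtCataaCCttatC
cyp19a1a forward: tattttttGtttGtttGtaGGtttGat
cyp19a1a reverse: CaaCaatattataaCtataaCtCCaCaC
hsd17b1 forward: attGtGattaaaaatttataaGatGtatGa
hsd17b1 reverse: CaataatCataCattaaaCaCaaaataata
cyp11c1 forward: ttttttttGatttGtGtttttttataGtaa
cyp11c1 reverse: aaCtCCtCCatatatttataCataC
hsd11b2 forward: GtaaaGttttGGttattGGGttttG
hsd11b2 reverse: CaaCCataCCaCCaCtaaaaaCata

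On GRCz11 the *dnmt1* amplicon lies at chr3:54352441-54352912 on the minus strand, with 26 CpG sites, all before the transcription start site. The *dmrt1* amplicon at chr5:44344542-44345024 on the plus strand holds 24 CpG sites from 224 bp before to 208 bp after the start site. The *cyp19a1a* amplicon at chr18:39655109-39655578 on the minus strand holds 15 sites, of which 9 are before the start site. The *hsd17b1* amplicon at chr3:17897321-17897746 on the minus strand holds 6 sites, all before it. The *cyp11c1* amplicon at chr16:54645580-54645995 on the minus strand holds 19 sites, of which 2 are before the start site. The *hsd11b2* amplicon at chr7:34854510-34854994 on the minus strand holds 9 sites, of which 5 are before it.

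The lists of the 20 testes hold 3720 cytosine values, 3252 of them inside the amplicons and 2461 of those with more than 5 reads. Levels are given in 2 ways. The level over all listed cytosines is the unweighted mean over the cytosines with more than 5 reads in that testis. The level over the CpG set is the mean over the deepest cytosines of an amplicon, as many as it has CpG sites (99 in all), and each of these was read at least 37 times in every testis. The number of CpG set positions before the start site equals the number known for each amplicon, 58 in all. Median coverage of the CpG set per testis ranged from 613 to 29470 reads for *dnmt1*, from 1666 to 29186 for *hsd11b2*, from 1555 to 32155 for *hsd17b1* and from 1034 to 29650 for *cyp11c1*. For *cyp19a1a* it ranged from 37 to 36948, and the testis with 37 reads (G24, high density) was the only one under 100 in any gene. The labels of all 20 testes fitted the methylation of *cyp19a1a* and *dmrt1*, which differed between the sexes. *cyp19a1a* was at 69.5 to 95.9% in testes and at 24.5 to 50.2% in the 20 ovaries, and *dmrt1* at 0.950 to 5.04% and at 21.6 to 51.5%, with no overlap.

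In testes no gene passed the test of its mean level between the densities, by either set of cytosines. Over all listed cytosines 0 of the 6 genes passed an adjusted p of 0.05 (a background of 0%), with the smallest adjusted p at 0.64. The plot of levels by testis shows overlapping groups in all 12 panels.

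**Figure D1:**
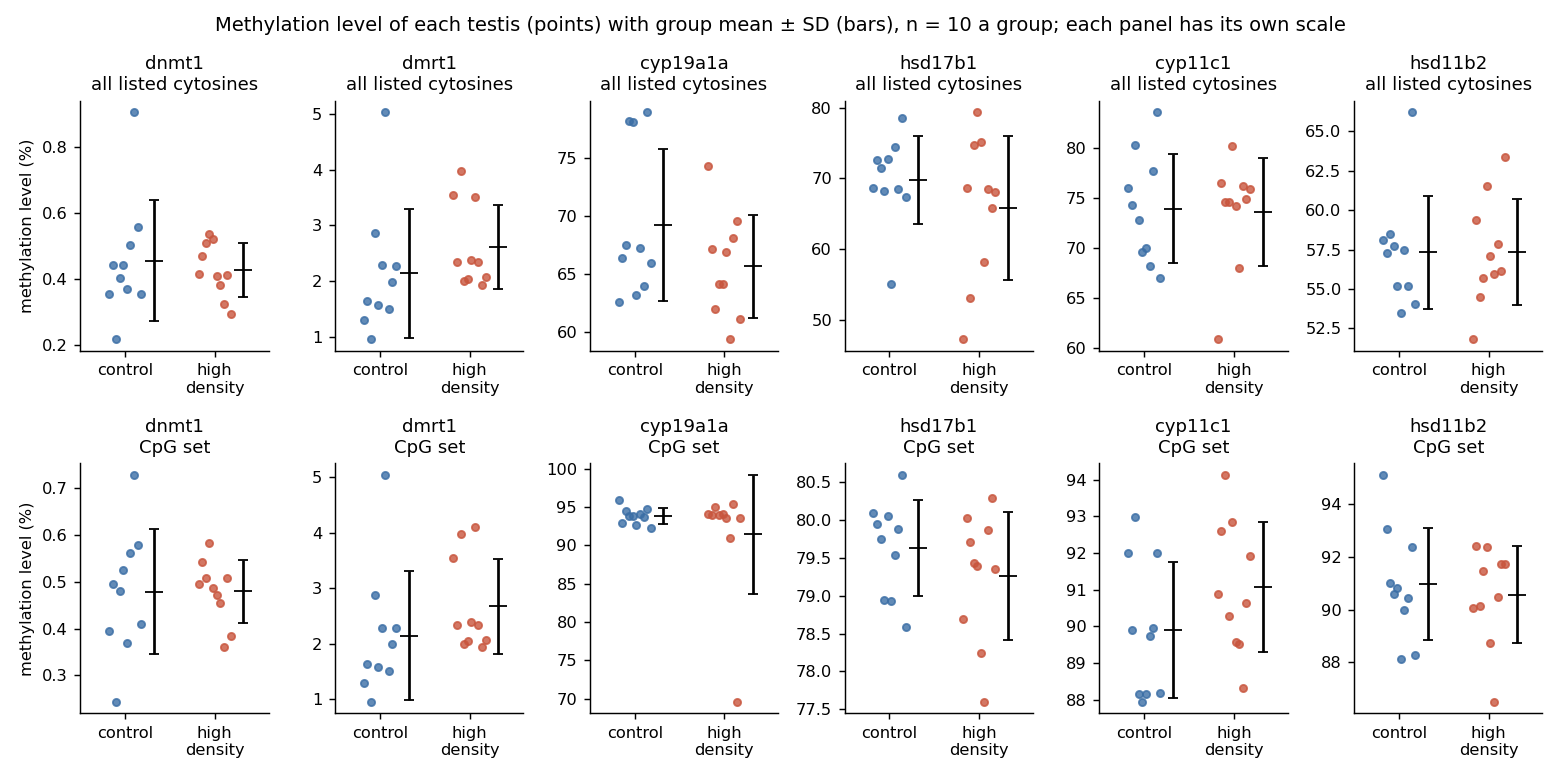
Methylation level in percent (y axis) of each testis by density, over all listed cytosines (top) and over the CpG set (bottom), with the group mean and SD as bars (n = 10 a group) and a separate scale in each panel. Groups overlapped for all 6 genes, and G24 of the high density group stands apart for *cyp19a1a* at 69.5% over the CpG set.

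The *dnmt1* promoter was almost free of methylation at both densities. Over the CpG set, control testes ran from 0.243% (G9) through a median of 0.487% to 0.728% (G21), and high density testes from 0.361% (G23) through 0.491% to 0.583% (G13). The high density testes all lay within the range of the controls. The means were 0.479% ± 0.133 (SD, n = 10) and 0.479% ± 0.0671 (SD, n = 10), and the difference of high density minus control, 0.000964 percentage points, had a 95% interval from -0.101 to 0.103 (two-sided exact permutation test, adjusted p = 0.98). Control testes were spread more widely, with a mean absolute deviation from the group median of 0.0991 against 0.0480 percentage points, but the exact permutation test of this spread did not pass (p = 0.11, adjusted p = 0.66). Values of 1% or more were found 21 times in controls and 11 times at high density. Among the controls G21 had 6 such sites and G24 had 5, while G9, with the lowest level, had 0. At high density a testis had up to 3 (G5). The difference did not pass the exact permutation test of the number per testis (p = 0.25). The raised values were scattered: 19 of the 26 sites were raised in some testis and 10 of these in 1 testis only. The *dnmt1* site with the largest SD was 412 bp before the start site (54352868). It was at 0.122% to 0.814% in controls with a median of 0.309%, and at 0.230% to 2.77% at high density with a median of 0.528%. This site also had 1 of the 3 smallest p of all sites but did not pass (exact permutation p = 0.0156, adjusted over 120 sites p = 0.90). The highest value, in G10, rested on 17 methylated of 613 reads (Wilson 95% interval from 1.74 to 4.40%, counting error only). The paper reports a bisulfite conversion slightly short of complete, and unconverted cytosines are read as methylated. The shortfall it gives is about as large as the *dnmt1* levels themselves. Outside the CpG set, 24 of 27 positions read in at least 5 testes averaged under 1%, such as *hsd11b2* 34854935 at 0.320% and *cyp11c1* 54645783 at 0.305%. Many values there were exactly 0%, 355 of the 481 with more than 5 reads. Their median coverage by gene was only 10.5 (*dmrt1*) to 98 reads (*hsd11b2*). The part of incomplete conversion in the *dnmt1* values, here and in the comparison with ovaries, was not tested.

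The *dmrt1* amplicon was low in all testes. Control testes ran from 0.950% (G9) through 1.81% to 5.04% (G20), and high density testes from 1.93% (G24) through 2.34% to 4.11% (G21), over the CpG set. The lowest high density testis lay above the median of the controls, and the highest of all 20 was a control. The control mean was 2.14% ± 1.16 (SD, n = 10) and the high density mean 2.67% ± 0.855 (SD, n = 10). They lay 0.53 percentage points apart, with a 95% interval from -0.432 to 1.49 (exact permutation test, adjusted p = 0.57, with 6 of 10 high density testes above the control mean). Without control G20 the control mean was 1.82%, all 10 high density testes were above it, and the difference was 0.85 with an interval from 0.145 to 1.56 (exact permutation p = 0.0225, adjusted p = 0.14). G20 was singled out after its value was seen, and other testes moved the difference the other way. Over all listed cytosines, where it was 0.47, it ran from 0.32 without high density G10 (exact permutation p = 0.49) to 0.79 without control G20 when each testis was left out in turn, and it passed adjustment in none of these fits.

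Along the *dmrt1* amplicon the mean profiles of the densities were alike (r = 0.98 across the sites). Mean methylation was highest at the outer sites and lowest just after the start site. The 10 sites before the start site averaged 2.47% in controls and 3.09% at high density, the 9 sites within 100 bp after it 1.28% and 1.59%, and the 5 sites farther on 3.03% and 3.78%. The lowest site, 28 bp after the start site (44344819), was at 0.969% ± 0.631 (SD, n = 20), and the highest, 164 bp after it (44344955), at 4.97% ± 2.16 (SD, n = 20). The latter also varied most, from 2.18 to 8.86% in controls and from 3.97 to 10.2% at high density. The mean was higher at high density at 23 of the 24 sites, by at most 1.46 percentage points. These sites are read in the same testes and on the same amplicon and are not independent, and the shape of the profile did not pass its test (exact permutation test, adjusted p = 0.65). At the *dmrt1* site with the smallest p of all sites, 69 bp after the start site (44344860), controls ran from 0 to 2.16% with a median of 1.07% and high density testes from 1.20 to 2.42% with a median of 1.55% (exact permutation p = 0.0141, adjusted over 120 sites p = 0.90).

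More *dmrt1* sites reached 1% in the high density testes. In controls between 10 (G9) and 24 (G20) of the 24 sites did, with a median of 16.5, and at high density between 19 (G24, G25) and 24 (G5, G10, G15) did, with a median of 21.5. The groups overlapped through controls G10, G18 and G20. The means were 17.1 and 21.6 sites per testis, a difference of 4.5 that passed the two-sided exact permutation test (p = 0.0111, adjusted over *dnmt1* and *dmrt1* p = 0.0222) and lay between 3.71 and 5.27 when each testis was left out in turn. At a limit of 2% the difference was 2.8 sites (p = 0.25) and at 5% it was 0.6 (p = 0.78), by the same exact test. Coverage moved with this count. The median *dmrt1* coverage was 245 to 2461 reads in controls and 1866 to 28422 reads at high density, a geometric mean 12.1 times higher (exact permutation test, adjusted p = 0.000195), while no other gene passed this test (adjusted p from 0.39). Within controls the count of sites at 1% or more had r = 0.74 with the logarithm of coverage, and within the high density group r = -0.03 (10 testes each, from the same libraries, given as a description). In the shallowest control 3 reads are 1.22%. Only controls G10 and G18, at 2461 and 2146 reads, lay within the coverage range of the high density testes, and each had 22 sites at 1% or more. The other controls were below that range, with 10 (G9) to 24 (G20) sites. Density and coverage can thus hardly be told apart here, and the part of coverage in the result was not tested.

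**Figure D2:**
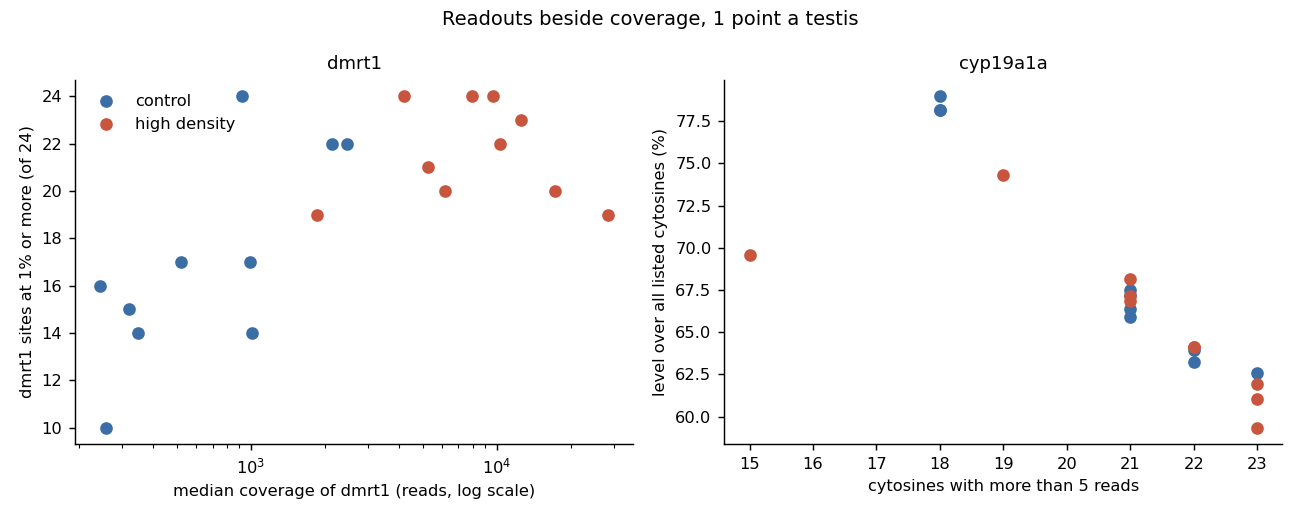
Left, number of *dmrt1* sites at 1% or more (of 24) against median *dmrt1* coverage in reads on a log scale; right, *cyp19a1a* level in percent over all listed cytosines against the number of cytosines with more than 5 reads; each point is 1 testis, coloured by density. The high density testes sit at 19 to 24 *dmrt1* sites and at higher coverage, and *cyp19a1a* levels fall as more cytosines enter.

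The *cyp19a1a* amplicon was nearly fully methylated in testes. Over the CpG set, controls ran from 92.3% (G26) through 93.8% to 95.9% (G3), and high density testes from 69.5% (G24) through 94.0% to 95.4% (G23). Apart from G24, the testis with 37 reads, the 9 high density testes were between 91.0 and 95.4%. Controls averaged 93.9% ± 1.06 (SD, n = 10) and high density testes 91.4% ± 7.78 (SD, n = 10), and the difference was -2.43 with a 95% interval from -8.01 to 3.16 (exact permutation test, adjusted p = 0.75). Without G24 the high density mean was 93.9% ± 1.25 (SD, n = 9) and the difference 0.00378 percentage points, with a 95% interval from -1.13 to 1.14. With G24, the mean was lower at high density at 15 of 15 sites, by 1.20 to 3.38 percentage points. Without it, 7 sites were higher and 8 lower. The *cyp19a1a* sites formed a flat profile: the lowest, 152 bp before the start site (39655404), had a mean of 90.6% and the highest, 258 bp before it (39655510), 94.5%. The site with the largest SD, 149 bp before the start site (39655401), ran from 62.2% in G24 to 96.5%.

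The 6 sites of the *hsd17b1* amplicon averaged close to 80% in every testis, with the narrowest range of the steroid genes. Controls ran from 78.6% (G26) through 79.8% to 80.6% (G24), and high density testes from 77.6% (G21) through 79.4% to 80.3% (G24). The means of 79.6% ± 0.629 and 79.3% ± 0.845 (SD, n = 10 each) differed by -0.37 percentage points with a 95% interval from -1.07 to 0.333 (exact permutation test, adjusted p = 0.57). Under this even mean, 2 of the 6 sites varied by far the most of all 99 sites. The site 28 bp before the start site (17897380, described here after its values were seen) had an SD of 33.6 percentage points over the 20 testes, and the site 245 bp before it (17897597, the site with the largest SD and the lowest mean) one of 33.8. These SDs were 30.1 and 30.4 times the median SD of the sites in the gene, while the largest such ratio at a site of another gene was 1.89. The other 4 sites together averaged 92.9 to 96.7% in every testis.

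The 2 variable *hsd17b1* sites, 217 bp apart, moved in opposite directions, and the testes fell into 3 classes. In 10 testes the near site was at 92.7 to 96.5% and the far site at 0.315 to 1.42%. In 4 testes they were at 46.1 to 47.6% and at 48.6 to 51.3%. In 6 testes they were at 19.3 to 28.7% and at 67.3 to 77.7%. No testis lay between the classes. A thymine in the DNA itself would be read like an unmethylated cytosine, and the genotype of the fish at these 2 sites was not tested. The near site alone had an SD of 33.6 percentage points but the sum of both only 0.940, below that of the mean of the other 4 sites at 0.961. The first class held 4 control and 6 high density testes, the second 4 control testes (G4, G9, G11, G18) and 0 high density testes, and the third 2 control (G20, G24) and 4 high density testes (G13, G15, G20, G24). Since the classes were drawn after the values were seen, these counts were not tested. The permutation tests of the sites themselves gave differences of 5.51 and -5.81 percentage points (exact p = 0.69 and 0.67). The listed position 1 base beyond the far site, at 5 to 127 reads and so in 1 testis not over the minimum, ordered the testes alike: it was at 0 to 4.35% in the first class, at 22 to 28.6% in the second and at 43.8 to 66.7% in the third. In ovaries, where the other 4 sites were lower, the near site divided by the mean of those 4 sites was over 90% in 11, between 40 and 60% in 5 and under 40% in 3 of 20 fish, and 1 lay outside these ranges.

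**Figure D3:**
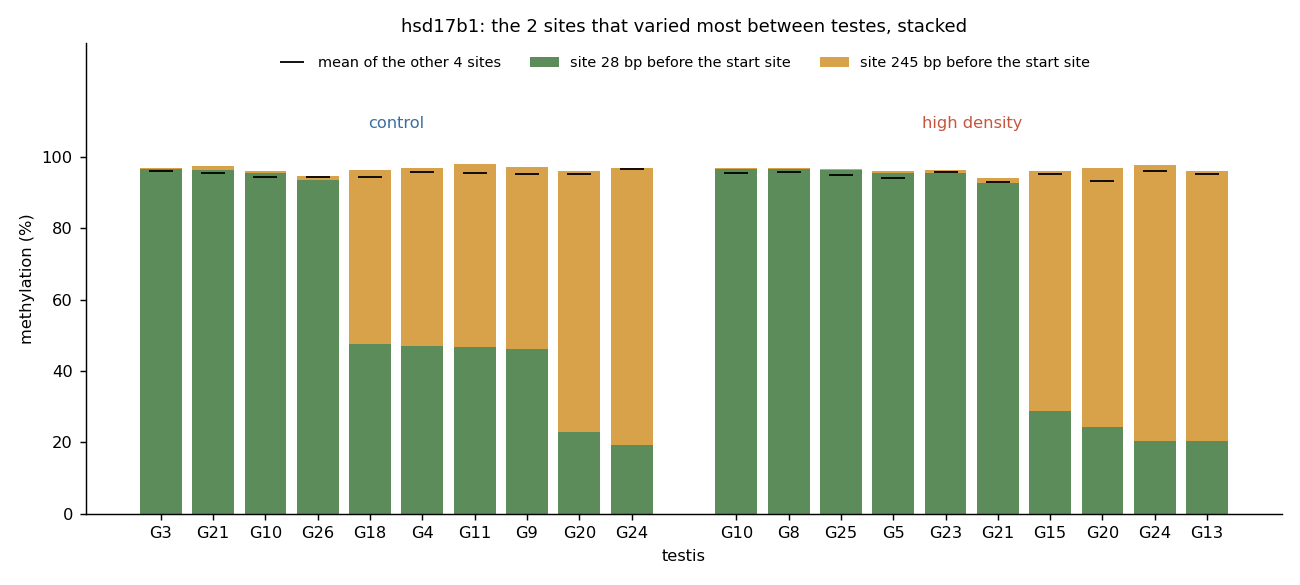
Methylation in percent (y axis) of the near and the far variable *hsd17b1* site, stacked, in each testis (x axis), with the mean of the other 4 sites as a black dash. The stacks reach nearly the same height in all 20 testes, and the split within them falls into 3 classes.

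The *cyp11c1* amplicon was highly methylated except at 1 site. Over the CpG set, controls ran from 87.9% (G11) through 89.8% to 93.0% (G9), and high density testes from 88.3% (G23) through 90.8% to 94.1% (G10). The means of 89.9% ± 1.86 and 91.1% ± 1.78 (SD, n = 10 each) differed by 1.17 percentage points with a 95% interval from -0.548 to 2.88 (exact permutation test, adjusted p = 0.57, with 7 of 10 high density testes above the control mean). The means were higher at high density at 18 of the 19 sites, by at most 2.16 percentage points, again in the same testes and on the same amplicon. The exception within the amplicon was the site 73 bp after the start site (54645721), with 30.9% ± 3.09 (SD, n = 20). It ran from 26.1 to 34.4% in controls and from 27.6 to 37.3% at high density, while its neighbours 4 bp nearer to and 22 bp farther from the start site averaged 94.1% and 92.1%. In ovaries the same site averaged 32.9% ± 18.9 (SD, n = 20), with neighbours at 67.6% and 59.4%. The *cyp11c1* site with the largest SD, 95 bp after the start site (54645699), was at 82.0 to 96.5% in controls and at 90.5 to 98.1% at high density. The site with the smallest p of the gene, 31 bp after the start site (54645763), had a median of 92.7% in controls and 94.9% at high density (exact permutation p = 0.11, adjusted p = 0.90).

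The *hsd11b2* amplicon was at 88.1% (G18) to 95.1% (G3) in controls with a median of 90.7%, and at 86.5% (G21) to 92.4% (G8) at high density with a median of 91.0%. The means of 91.0% ± 2.11 and 90.6% ± 1.84 (SD, n = 10 each) differed by -0.42 percentage points with a 95% interval from -2.28 to 1.45 (exact permutation test, adjusted p = 0.78). The 5 *hsd11b2* sites before the start site averaged 89.6% in controls and 88.9% at high density, and the 4 sites after it 92.8% and 92.6%. The lowest and most variable site was 186 bp before the start site (34854818) at 87.4% ± 2.69 (SD, n = 20), and the highest 38 bp after it (34854594) at 93.1% ± 1.43 (SD, n = 20). Close to the outermost site (34854908) the lists hold further positions with high methylation, chosen here after their values were seen: the position 2 bases away (34854910) was at 85.7 to 95.4% with a median of 961.5 reads, and the position 4 bases away (34854912) at 76.5 to 100% with a median of 38.5 reads. Whether these positions are cytosines separate from the site at 34854908 was not determined. A cytosine 28 bases from that site (34854936), outside the CpG set, had 1 of the 3 smallest p of all sites. It was at 0 to 0.407% in controls and 0.114 to 0.471% at high density (exact permutation p = 0.0333, adjusted p = 0.90). Values this low are in the range of *dnmt1*, and the part of incomplete conversion in them was not tested.

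**Figure D4:**
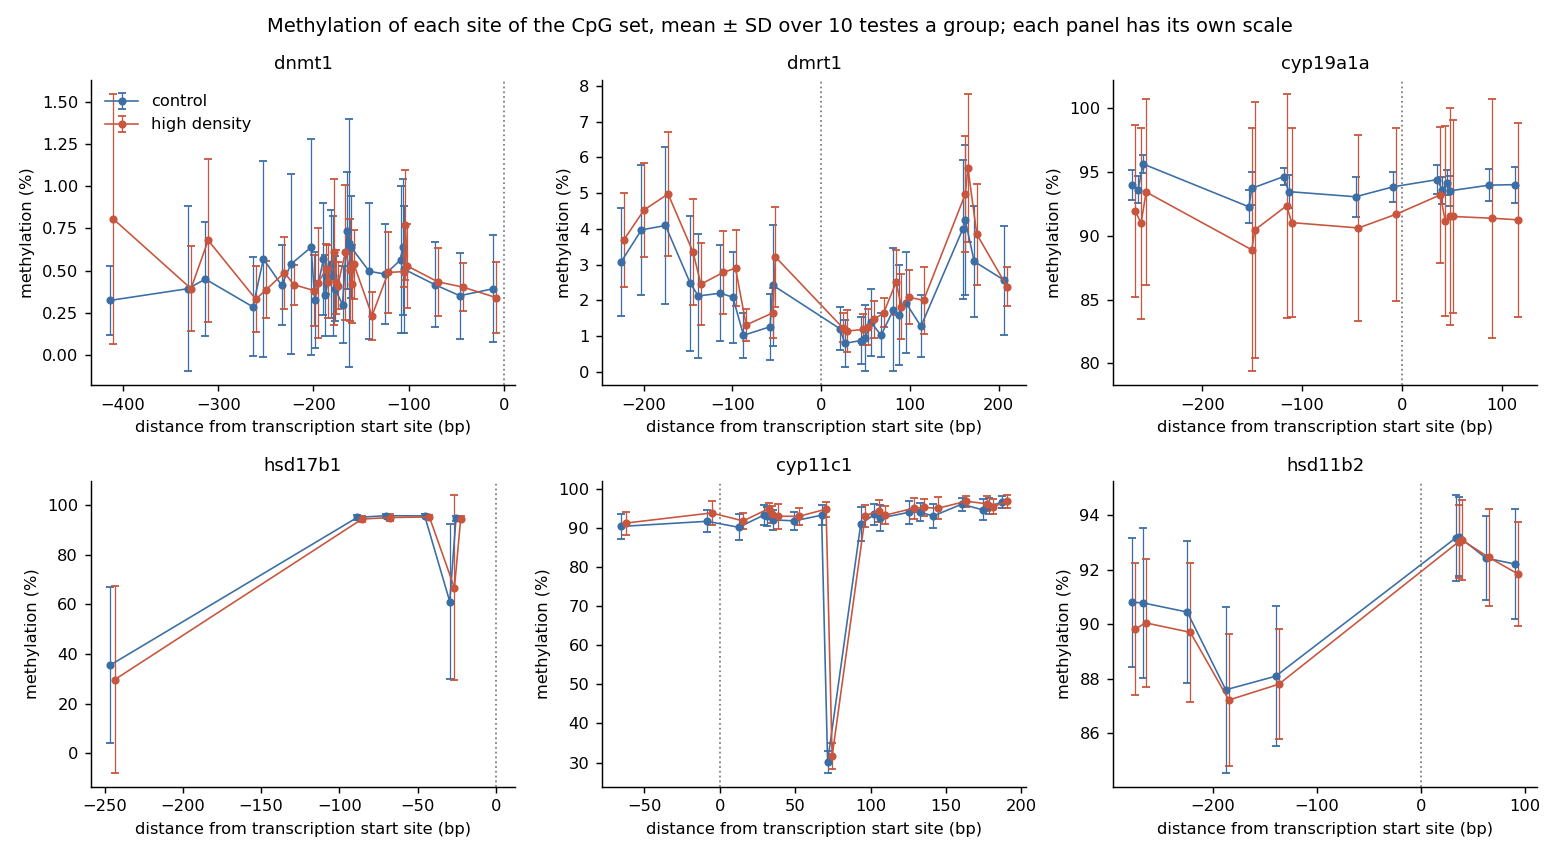
Methylation in percent (y axis) of each site of the CpG set against its distance from the transcription start site in bp (x axis), as mean and SD over 10 testes a group, with a separate scale in each panel. The groups follow the same profile in each gene but *dnmt1*, where the plotted group means lie between 0.233 and 0.808%. The test of the *dnmt1* profile between densities did not pass (exact permutation test, adjusted p = 0.60). The *cyp11c1* site 73 bp after the start site is at 30.9% and 2 *hsd17b1* sites have SDs over 30 percentage points.

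Over all sites, 120 cytosines could be tested, with at least 6 testes a group. None passed an adjusted p of 0.05 by the exact permutation test (a background of 0%), and 5 (4.17%) had an unadjusted p under 0.05: 3 of 29 cytosines in *dnmt1*, 1 of 24 in *dmrt1*, 1 of 17 in *hsd11b2* and 0 of the 50 in *cyp19a1a*, *hsd17b1* and *cyp11c1*. Of the 5, 4 (3.33% of the tested cytosines) were higher at high density and 1 (0.833%) was lower. A quasi-binomial model per site also called 0 sites, with 7 at an unadjusted p under 0.05. With each testis left out in turn, the number at an unadjusted p under 0.05 ran from 2 (without control G24, high density G8 or high density G25) to 11 (without control G20), the smallest adjusted p lay between 0.0533 (without control G20) and 1, and 0 sites passed. The 120 cytosines include positions at 0% in every testis, which no test could call. Among the 99 sites of the CpG set alone, 0 passed the exact permutation test after adjustment and 4 had an unadjusted p under 0.05. No gene passed the test of the shape of its site profile (exact permutation tests, adjusted p from 0.60 to 0.94). None passed the test of the spread of the level between testes, over all listed cytosines (adjusted p from 0.72) or over the CpG set (adjusted p from 0.66).

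In the steroid genes the level over all listed cytosines fell as more cytosines entered. Besides the CpG set, 53 positions had more than 5 reads in some testis, 12 of them inside a primer, 8 next to a CpG set site and 33 elsewhere, and 355 of their 481 values were exactly 0%. Of the 27 such positions read in at least 5 testes, 24 averaged under 1%. The level is an unweighted mean, so in a highly methylated gene each position near 0% lowers it. The relation below is therefore largely built into the measure, and its p-values are not separate evidence. In *cyp19a1a*, between 15 and 23 cytosines entered, and the level over all listed cytosines was highest in control G24, at 79.0% with 18 cytosines, and lowest in high density G21, at 59.4% with 23. High density G24, with 15 cytosines, stood apart at 69.5%. Over the 20 testes, centred on the group means, the level and this number had r = -0.82 and rho = -0.92 in *cyp19a1a*, r = -0.92 and rho = -0.77 in *hsd17b1*, r = -0.92 and rho = -0.94 in *cyp11c1*, and r = -0.91 and rho = -0.80 in *hsd11b2* (permutation test adjusted over 6 genes, largest adjusted p of r in these steroid genes 4.5e-05). Without the 2 testes farthest from the median number the r were -0.99, -0.84, -0.94 and -0.84. In *dnmt1* and *dmrt1*, which are low in testes, r was -0.09 and 0.23 (permutation test, adjusted p = 0.67 and 0.36). Over the CpG set the adjusted p for the same relation was 0.30 or more in each gene. The difference between densities over all listed cytosines was -3.54 ± 2.51 (SE) percentage points in *cyp19a1a* and -3.89 ± 3.78 (SE) in *hsd17b1* (exact permutation test, adjusted p = 0.64 for both), against -2.43 and -0.37 over the CpG set. The *hsd17b1* difference over all listed cytosines ran from -5.53 to -1.82 with each testis left out in turn, the latter without high density G5.

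Levels of some steroid genes varied together from testis to testis. The relations were computed for the 15 pairs of genes over the CpG set, after centring on the group means. Of the 15, 1 pair (6.67%) passed an adjusted p of 0.05. *hsd17b1* and *hsd11b2* had r = 0.78 and rho = 0.74 over 20 testes (permutation p = 7e-05, adjusted p = 0.00105). Within controls r was 0.74 (permutation p = 0.0134, adjusted p = 0.077, n = 10) and within the high density group 0.84 (permutation p = 0.00328, adjusted p = 0.0492, n = 10). It was 0.64 without the 2 testes farthest from the median of *hsd17b1*, and from 0.69 to 0.83 with each testis left out in turn. The 4 testes lowest in *hsd11b2*, G21 and G20 at high density and G18 and G26 among the controls, were also among the 5 lowest in *hsd17b1*. *cyp11c1* and *hsd11b2* had r = 0.56 (permutation p = 0.0137, adjusted p = 0.10), and *hsd17b1* and *cyp11c1* r = 0.47 (permutation p = 0.0406, adjusted p = 0.15). *dmrt1* and *hsd11b2* went in opposite directions with r = -0.51 and rho = -0.62 (permutation p = 0.0319 and 0.00544, adjusted p = 0.15 and 0.0408). That r was -0.38 in controls (permutation p = 0.28) and -0.72 at high density (permutation p = 0.0178).

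**Figure D5:**
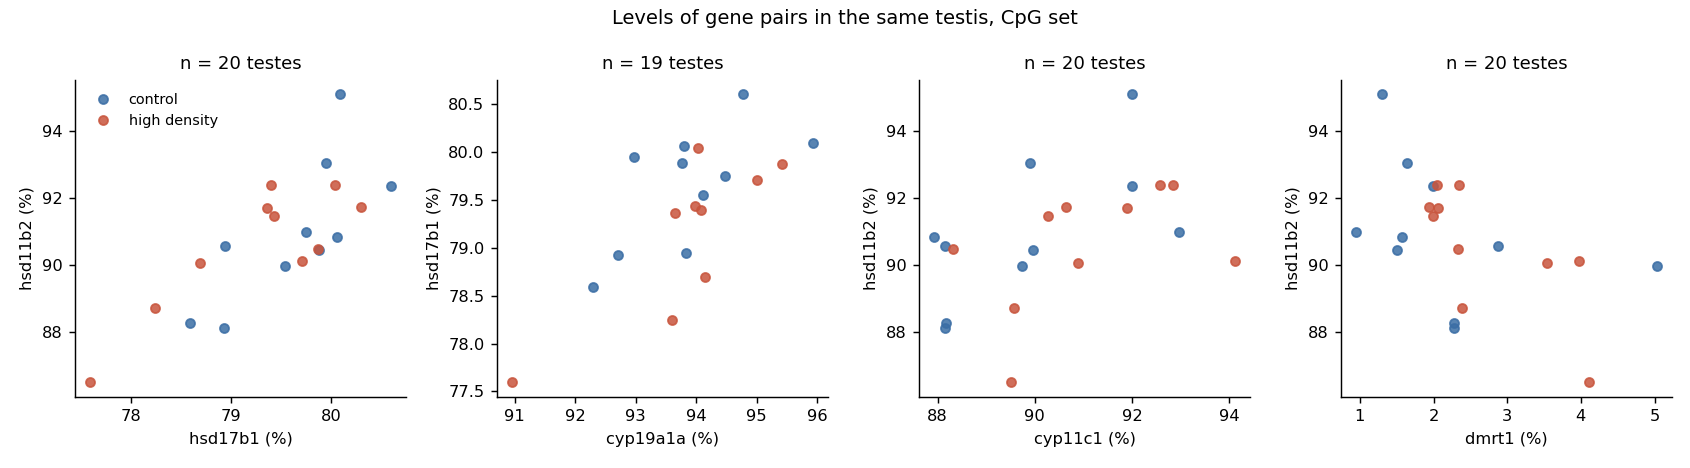
Levels in percent of 2 genes in the same testis over the CpG set, coloured by density, for *hsd17b1* and *hsd11b2*, *cyp19a1a* and *hsd17b1* (without G24 of the high density group), *cyp11c1* and *hsd11b2*, and *dmrt1* and *hsd11b2*. The first pair has r = 0.78 over 20 testes, and the last r = -0.51.

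The relations of *cyp19a1a* depended on G24, the high density testis with 37 reads. With it, *cyp19a1a* and *hsd17b1* had r = -0.20 and *cyp19a1a* and *hsd11b2* r = -0.004. Without it, over 19 testes, they had r = 0.75 and rho = 0.66 (permutation p = 0.00031, adjusted p = 0.00233) and r = 0.69 and rho = 0.52 (permutation p = 0.0021, adjusted p = 0.0105, adjusted p of rho = 0.087). In these 19 testes 4 of the 15 pairs passed, the others being *hsd17b1* with *hsd11b2* (r = 0.78) and *cyp11c1* with *hsd11b2* (r = 0.57, permutation adjusted p = 0.0476, adjusted p of rho = 0.087). With each of the 19 left out in turn, *hsd17b1* with *hsd11b2* passed in 19 of the fits, but *cyp11c1* with *hsd11b2* in 6 only (adjusted p up to 0.12). Within controls *cyp19a1a* had r = 0.67 with *hsd17b1* and 0.76 with *hsd11b2*, and within the 9 remaining high density testes 0.81 and 0.64 (permutation adjusted p = 0.12 and 0.077 in controls, 0.0432 and 0.32 at high density). The second relation rested in part on the extreme testes, with r = 0.31 without the 2 farthest from the median of *cyp19a1a*, against 0.64 for the first. Replacing the *hsd17b1* level by the mean of its 4 sites outside the variable pair gave r = 0.72 with *cyp19a1a* and 0.77 with *hsd11b2*. Leaving out G24 was chosen after the values were seen. The genes of a testis come from the same gonad and library. The level of *hsd11b2* over the CpG set had r = -0.53 and rho = -0.60 with the logarithm of its own coverage (permutation p = 0.0195, adjusted p = 0.12), and the part of coverage in these relations was not tested. The level of *dnmt1* had r between -0.07 and 0.23 with the other 5 genes (adjusted p from 0.74).

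Over all listed cytosines 4 pairs (26.7%) passed: *cyp11c1* with *hsd11b2* (r = 0.75), *hsd17b1* with *hsd11b2* (r = 0.66), *hsd17b1* with *cyp11c1* (r = 0.63) and *dmrt1* with *cyp11c1* (r = -0.56; permutation tests, adjusted p from 0.00315 to 0.0355). The last had r = -0.16 over the CpG set. With 1 testis left out, *cyp11c1* with *hsd11b2* passed in every fit (permutation test, adjusted p up to 0.0214). Each of the other 3 pairs lost its call in at least 1 fit (adjusted p up to 0.097, 0.14 and 0.14 in the order given). Without high density G5 only 1 pair passed. In all 3 steroid genes of these pairs the level over all listed cytosines followed the number of cytosines that entered, as given above.

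The density effect in testes was set against that in ovaries by a permutation test of the interaction. None of the 6 genes passed over all listed cytosines (5 of 6 with an unadjusted p over 0.2) or over the CpG set, so no effect can be called particular to testes. The smallest p was that of *dnmt1*, with 0.0332 over the CpG set (adjusted p = 0.20), where the difference of high density minus control was 0.000964 percentage points in testes and -0.236 in ovaries. For *dmrt1* the differences were 0.53 and -3.58 (permutation p = 0.24). In the steroid genes the SD over 20 fish of the CpG set level was lower in testes than in ovaries, given as a description. It was 0.749 against 6.68 percentage points in *hsd17b1*, 1.87 against 9.33 in *cyp11c1* and 1.94 against 6.88 in *hsd11b2*. In *cyp19a1a* it was 5.55 against 7.45, with high density G24, at 37 reads, among the testes. The testes lay closer to full methylation, with means of 79.4 to 92.7% in these genes against 28.7 to 68.9% in ovaries. The part of this difference in level in the SDs was not tested.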

How the data were processed

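Bisulfite amplicon sequencing of 20 testes (10 a density) was analysed. The submitters' processing notes list Trim Galore 0.4.5, FastQC 0.11.6, Bowtie2 and Bismark 16.0 on GRCz11. The authors deposited, for every listed cytosine, a methylation percent. Each row also has the deposited read count for methylated and for unmethylated reads, not normalized. Cytosines needed more than 5 reads. Intervals on reads cover counting error only, since PCR copies cannot be told apart.

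The fish was the unit. Groups were compared by two-sided exact permutation tests over 184756 splits, relations between genes by 100000 permutations within density, and the testis and ovary effects by 100000 permutations, all with Benjamini-Hochberg adjustment at 0.05. Intervals of mean differences are 95% intervals that allow unequal variances. The site test was tried on simulated data, where it called 19 of 20 changed sites and 0 of the unchanged ones among 99. The simulated shift was larger than any site difference found between the densities. The simulation therefore does not show how often differences of the size found here would be called. Sites were named by a rule: the 3 with the smallest p and, in each gene's CpG set, those with the smallest p, the largest SD and the lowest and highest mean. The members and lists were chosen with earlier results of these data known. Coverage minimums, cytosine sets, summaries, models, a block and left-out testes were tried as alternatives. No 2 testes had identical counts at any of the 99 sites. The paper set the density per tank, and the labels do not say which fish shared a tank. A difference between tanks therefore cannot be told apart from a difference between densities. The p-values take the fish as independent and hold for these fish only. Tests ran in Python 3.11.15 with scipy 1.17.1, numpy 2.4.6 and statsmodels 0.14.6, and figures were drawn with matplotlib 3.10.9.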

Additional observations from a re-analysis of the deposited data

Results flagged for a closer look

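A testis was picked out where its gap to the nearest other testis of its group was too large a part of the group's range for samples of 10. Of 64 groups of values tested, 11 (17.2%) held such a testis. Chance alone flags about 1 in 20 groups where the groups are not chosen by their values. The groups include the named sites, which were chosen by their p, SD or mean in these same data. That rate therefore does not apply to them, and the share flagged cannot be set against it. Several of the 11 are the same testis seen in related values.

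Control G20 had the highest *dmrt1* level of the controls at 5.04%, the same value over all listed cytosines and over the CpG set. High density G24 had the lowest *cyp19a1a* level over the CpG set at 69.5%, on 37 reads, and the lowest values at its sites 39655404 (62.2%), 39655401 (62.2%) and 39655510 (73.0%). Control G21 had the highest *dnmt1* level over all listed cytosines, 0.904%. At the *dnmt1* site 54352868, control G24 was highest of its group at 0.814% and high density G10 of its group at 2.77%. Over all listed cytosines, control G18 was lowest in *hsd17b1* at 55.1% and control G24 highest in *hsd11b2* at 66.2%.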

How the results depend on the processing

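No alternative brought a gene level, its spread or a profile past the threshold, with 0 of 6 genes called under each. Some differences changed sign. In *dnmt1* the difference (high density minus control, percentage points) was 0.0344 without a coverage minimum, 0.00173 at 30 reads or more, 0.000964 over the CpG set and over cytosines passing in every testis, 0.000914 with reads pooled, 0.0534 as a median and 0.00532 in the quasi-binomial model. In *cyp11c1* these were 1.17 over the CpG set, 1.12 for every testis, 1.17 pooled, 1.19 as a median and 1.56 in the model. In *hsd11b2* they were -0.604 at 10 reads or more, -0.416 over the CpG set, -0.356 for every testis, -0.400 pooled, -0.697 as a median and -0.162 in the model. In *cyp19a1a* it was 0.00378 over the CpG set without G24, against -3.54 over all listed cytosines. With each testis left out in turn the difference ran from -0.0542 to 0.0220 in *dnmt1*, from -1.12 to 1.07 in *cyp11c1* and from -0.649 to 1.01 in *hsd11b2*, and the difference in spread from -0.331 to 0.0852 in *dmrt1* and from -0.292 to 0.971 in *hsd11b2*. The spread difference over the CpG set was 2.33 in *cyp19a1a*, where it was -0.0411 without high density G24, and -0.118 in *hsd11b2*, and -0.0825 in *hsd11b2* as log2 SD. The interaction with sex over the CpG set was 1.05 in *cyp19a1a* and 1.21 in *hsd17b1*, against -1.82 and -3.22 over all listed cytosines. Fisher's exact test on reads pooled per group, which leaves out the spread between fish, called 62 of 120 sites. In the model per site, which gave no p at 10 sites, *cyp11c1* 54645605 was at -0.127 and *hsd11b2* 34854594 at 0.269. The number of gene pairs called, 4 over all listed cytosines, was there 1 (without high density G5) to 5 with each testis left out and 1 at 30 reads or more, and it was 1 over the CpG set. The *dmrt1* difference in raised sites was 2.8 at 2% and 0.6 at 5%. The causes were not tested. Leaving out testes for the site counts, the raised sites and the CpG set relations was chosen after seeing the data.

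The labels do not say whether the 4 numbers found at both densities link the testes in any way, and the testes were treated as unpaired. Deviations of same-numbered testes had correlations of -0.109, 0.351, -0.0628 and 0.656 over the 6 genes. Correlations over 6 genes are too few to decide this. With the number as a replicate block the difference was -3.22 in *hsd11b2*, -7.65 in *cyp19a1a* and between -9.35 and 0.104 in the others, and 0 genes were called, where 0.125 is the smallest p that 4 pairs allow. In the shallowest testis 3 reads are 1.22% in *dmrt1* and 0.489% in *dnmt1*, and *cyp19a1a* has a testis at 37 reads.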

Other observations

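The lists also hold cytosines outside the amplicons. On chromosome 19, between 27434975 and 27435377, 8 positions were listed, 7 of them in 19 testes at a median of 6 reads and 1 in a single control testis with 1 read. The mean methylation over these positions averaged 75.1% in the 9 control testes, from 61.9 to 82.1%, and 72.9% in the 10 high density testes, from 57.1 to 78.6%, a difference that did not pass (two-sided exact permutation test, p = 0.47). The positions were not alike: 27435059 had 0 methylated of 64 reads in controls and 0 of 79 at high density.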
